A study of Mus musculus with 12 samples.

Results

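CD8+ T cells that had been expanded with all-trans retinoic acid (ATRA, a ligand of the retinoic acid receptors) and then left in co-culture with tumour cells were compared with untreated cells that had been restimulated after the same co-culture. These are the groups with the lowest Ifng and the lowest levels of most measured chemokine transcripts of the study, and the question was how alike they were and what set them apart. The comparison used 6 of the 12 libraries, 3 co-cultured ATRA libraries and 3 restimulated control libraries, assigned to their groups by their labels. Counts were joined on the 13476 gene symbols present in both deposited count tables.

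Both groups began as OT-I CD8+ T cells from the spleens of mice that carry a transgenic T cell receptor for an ovalbumin peptide. The cells were expanded with anti-CD3e, anti-CD28 and IL-2, in the presence of ATRA at 5 ng/mL or of DMSO for the controls, cultured further, and then kept for 72 h at 1% O2 with GL261 mouse glioma cells that express ovalbumin, without added ATRA. The ATRA group was sorted as live CD45.2+ cells at that point, and the control group was sorted after a further 24 h with anti-CD3e. The oxygen level during those 24 h was not given in the sources used here. Treatment, state, batch set and count table all differ between the groups and cannot be told apart, and each batch held libraries of only 1 of the groups, so no within-batch value can be given. Separate mice or cultures are not stated for the libraries, so a p-value here reflects the spread from library to library, which may be technical.

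A T cell receptor signal induces immediate early transcription factors, which drive cytokine, chemokine and effector genes, and chronic signalling by tumour antigen leads to inhibitory receptor expression and falling cytokine output, a state called exhaustion. Low oxygen stabilises hypoxia-inducible factors, which raise genes of glycolysis and of vessel growth. Retinoic acid is known in T cells for inducing the gut-homing receptors, the chemokine receptor CCR9 and the integrin alpha4beta7.

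The co-cultured ATRA libraries held 23558244 to 26024194 counts and the restimulated control libraries 16288111 to 18647091. Levels are given as CPM, counts relative to the library total scaled by TMM over all 12 libraries, listed for replicates 1, 2 and 3 in that order. On this scale 3 counts correspond to 0.124 to 0.141 CPM in the ATRA libraries and to 0.162 to 0.186 CPM in the controls. In bulk samples, fewer cells of a type and less RNA per cell cannot be told apart. ATRA replicate 3 stood apart from its group. Its log expression correlated across genes at 0.951 and 0.964 with replicates 1 and 2, which correlated at 0.989 with each other, whereas the restimulated control libraries correlated at 0.981 to 0.987.

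Of 11694 genes tested, 5418 (46.3%) passed an adjusted p of 0.05 in edgeR's quasi-likelihood test, 2869 (24.5%) higher and 2549 (21.8%) lower in the co-cultured ATRA cells, and 2517 (21.5%) differed at least 2-fold. For 5754 genes (49.2%) the 95% interval of the difference lay wholly within 2-fold in either direction, which is called alike here. Among 3924 genes at 50 CPM or more in both groups, 2897 (73.8%) were alike. A gene could be both called and alike, as 1465 (12.5%) were, and 1987 (17.0%) were neither, so their data did not place them. For 7277 genes (62.2%) every library of 1 group lay above every library of the other. These shares of all genes are the background for the counts of list members given below.

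The count of calls rose to 6507 without ATRA replicate 3, and fell to 3396 without control replicate 1 and to 3595 without control replicate 2. The split between higher and lower depended on the scaling, with 2869 of 5418 calls higher under TMM but 2212 of 5480 (40.4%) under library totals alone, which moved the median log2 difference of all genes from 0.03 to -0.15, and 3218 of 5391 (59.7%) under upper quartile scaling.

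**Figure D1:**
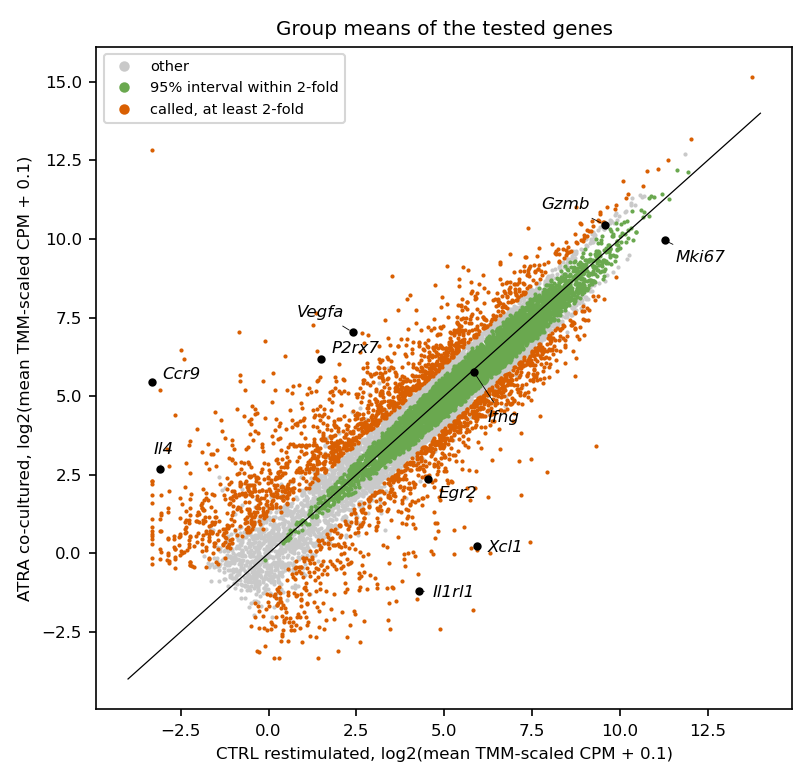
Group means of the tested genes on log2 axes, restimulated control cells across and co-cultured ATRA cells upwards; orange points were called and at least 2-fold apart, green points had a 95% interval within 2-fold, and grey points were the other genes. Ifng sits on the diagonal, Ccr9, P2rx7 and Vegfa far above it, and Xcl1, Il1rl1 and Egr2 below it.

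Set beside the other pairs of groups, each fitted on its own 6 libraries, this pair held the third place from the lowest share of calls. The share of genes called was 34.0% between the co-cultured groups, 39.6% between control cells before and after restimulation, 46.3% here, 57.3% between ATRA cells before and after restimulation, 65.3% between the restimulated groups and 65.9% between co-cultured control and restimulated ATRA cells. The share of alike genes was 49.2% here, and only the pair of ATRA groups had fewer, at 45.1%. In the fit of all 12 libraries the order moved, and this pair's 6801 calls were exceeded only by the 7502 between the ATRA groups. These pairs share libraries and are therefore only listed side by side. Across 12265 genes, the log expression of single libraries of the present groups correlated at 0.873 to 0.926.

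Both groups were chosen as cytokine-low, a label that covers interferon-gamma and most chemokines but not all cytokines or Cxcl10. Of 25 cytokine and chemokine genes in the fit of all 12 libraries, 13 were lower in each of these 6 libraries than in every one of the other 6. The share over all genes was 585 of 12265 (4.77%). The 13 were Ifng, Csf2, Il3, Tgfb1, Il17a, Il22, Xcl1, Ccl3, Ccl4, Ccl5, Ccl1, Ccl9 and Areg. Because the groups were chosen for this trait, the count describes the choice and does not test it. Il3, Il17a, Il22 and Areg failed the filter on low counts in these 6 libraries. They entered through the other groups, which favoured their low place here. The mean of the other groups was 10.4 times the mean of these groups for Ifng, 14.2 times for Ccl3 and 3.15 times for Ccl5. The ratio was under 1 for Cxcl10 (0.316), Ltb (0.329), Il16 (0.391), Lif (0.633) and Osm (0.811). Cxcl10, an interferon-induced chemokine, was low throughout, at 1.86, 1.34 and 0.516 CPM in the co-cultured ATRA libraries and at 0.395, 0.248 and 0.758 CPM in the restimulated controls, groups that overlapped (adjusted p = 0.104, edgeR).

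Ifng encodes interferon-gamma, the defining cytokine of type 1 immunity. Its level was 81.9, 71.6 and 10.5 CPM in the co-cultured ATRA libraries and 57.3, 54.4 and 59.6 CPM in the restimulated control libraries. The ATRA libraries lay on both sides of the controls, with replicates 1 and 2 above and replicate 3 below them. The means were 54.7 ± 38.6 and 57.1 ± 2.60 CPM (SD, n = 3 each), against 783 ± 117 CPM in co-cultured control cells and 385 ± 5.12 CPM in restimulated ATRA cells. The log2 difference was -0.02 with a 95% interval from -1.5 to 1.46 and an adjusted p of 0.979 (edgeR), so neither a difference nor likeness within 2-fold was shown. Without ATRA replicate 3 the value was 0.47 with an adjusted p of 0.00282.

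Other type 1 and effector cytokines were higher in the co-cultured ATRA cells. Of 11 tested, 8 were called higher and none lower, with a median log2 difference of 1.44, and 5 were called higher without control replicate 1. Tnf, which encodes tumour necrosis factor, was at 120, 104 and 38.2 CPM against 31.3, 36.4 and 31.5 CPM, so all ATRA libraries lay above all controls. Its log2 difference was 1.44 (SE 0.40, adjusted p = 0.0233, edgeR), and the adjusted p rose to between 0.0675 and 0.0879 when any 1 library other than ATRA replicate 3 was left out. Csf2, the gene for GM-CSF, was at 53, 44.2 and 21.1 against 22.2, 16.8 and 18.9 CPM. These groups overlapped between ATRA replicate 3 and control replicate 1, and the log2 difference of 1.07 (adjusted p = 0.0356) was lost on leaving out any library other than ATRA replicate 3, with adjusted p from 0.0823 to 0.118, and under library totals alone (0.0803). Lymphotoxin genes stood further apart. Lta was at 444, 393 and 60.4 CPM in the ATRA libraries and at 15.8 to 16.5 CPM in the controls (adjusted p = 0.00406, edgeR), and Ltb at 163, 171 and 210 CPM against 54.0, 65.2 and 88.9 CPM (adjusted p = 0.00203, edgeR); these genes, and Il10, Il13 and Gata3 further on, were picked after their values were seen.

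Most chemokines went the other way. Of 7 tested, 4 were called lower in the co-cultured ATRA cells, with a median log2 difference of -1.66, and none was called higher (1 without ATRA replicate 3). Xcl1 encodes lymphotactin, which attracts cross-presenting dendritic cells. It was at 1.40, 1.34 and 0.516 CPM in the ATRA libraries and at 59.1, 56.4 and 68.4 CPM in the controls, groups that were far from overlapping, with a log2 difference of -5.77 (SE 0.33, adjusted p = 0.000102, edgeR). Ccl1, a ligand of CCR8, was at 5.66, 3.52 and 0.984 against 79.2, 73.0 and 74.9 CPM, a log2 difference of -4.43 (SE 0.53, adjusted p = 0.00132; -5.04 without ATRA replicate 1). Ccl9 was at 0.207, 0.757 and 1.78 against 20.6, 15.7 and 10.2 CPM, a log2 difference of -4.08 (SE 0.64, adjusted p = 0.00329; -4.99 without ATRA replicate 3). So transcripts that were low in both groups still differed between them by more than the spread of the libraries.

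Ccl4, Ccl3 and Ccl5 were closer. Ccl4 was at 29.8, 25.3 and 6.33 against 57.7, 83.7 and 58.7 CPM, a log2 difference of -1.66 (SE 0.52, adjusted p = 0.0351, edgeR), and its adjusted p was 0.0706 to 0.107 without ATRA replicate 2 or any of the controls. Ccl3 was at 61.4, 48.2 and 3.56 against 84.2, 101 and 77.7 CPM. The difference of -1.17 did not pass (adjusted p = 0.262), although the libraries did not overlap, and without ATRA replicate 3 it was -0.63 with an adjusted p of 0.00227. Ccl5 overlapped between the groups, at 100, 93.1 and 43.1 against 95, 122 and 141 CPM, and did not pass (log2 difference -0.56, adjusted p = 0.19).

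**Figure D2:**
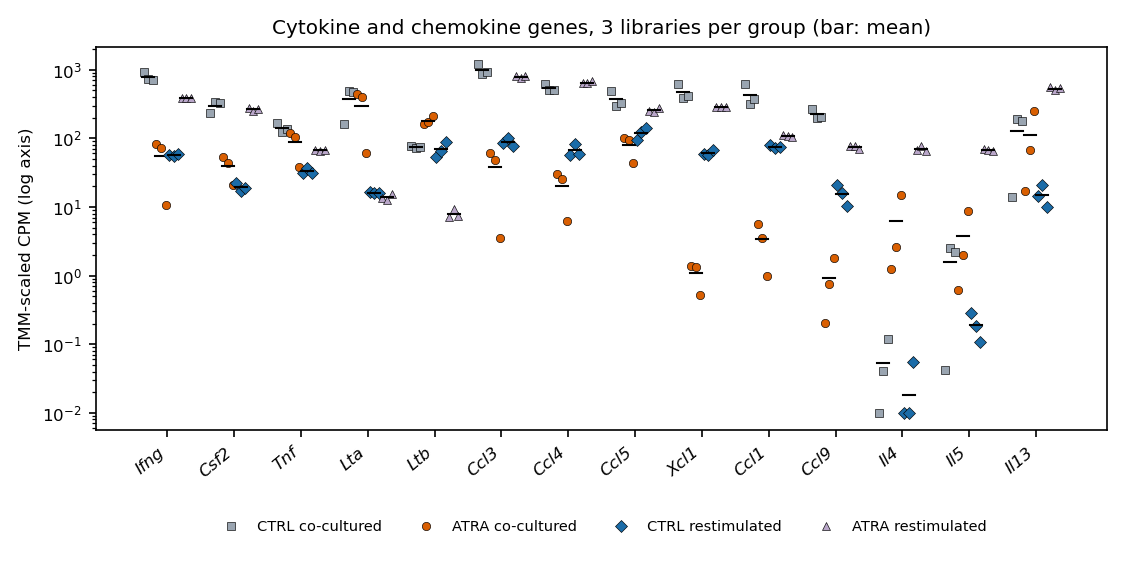
Levels of 14 cytokine and chemokine genes in TMM-scaled CPM on a log axis, 3 libraries per group, bars marking means; values of 0 are drawn at 0.01 and the other groups of the study are shown for reference. Xcl1, Ccl1 and Ccl9 separate the co-cultured ATRA cells from the restimulated controls, whereas the ATRA libraries span the controls for Ifng.

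Type 2 cytokine transcripts were mostly higher in the co-cultured ATRA cells and varied among their libraries. Of 8 genes of that list tested, 6 were called higher and 1 lower, with a median log2 difference of 3.13. Il4 was at 1.24, 2.63 and 14.9 CPM in the ATRA libraries, whereas the controls held 0, 0 and 1 count (adjusted p = 0.0066, edgeR). Il13 was at 17.2, 66.7 and 252 CPM against 14.4, 21.1 and 9.97 CPM (adjusted p = 0.0329), with ATRA replicate 1 inside the control range. Il10, which encodes an anti-inflammatory cytokine, was at 1.45, 9.80 and 45.3 against 0.113, 0.372 and 0.379 CPM (adjusted p = 0.0115). In each of these genes ATRA replicate 3 was the highest library, and the same library had the lowest Ifng, Lta and Ccl3 of its group. Gata3, the transcription factor of type 2 lymphocytes, was at 18.3, 45.6 and 139 CPM against 53.5, 66.0 and 69.8 CPM and did not differ (adjusted p = 0.893). The called exception in the list was Il1rl1, the receptor of IL-33, at 0.413, 0.356 and 0.234 against 21.8, 20.7 and 15.1 CPM, a log2 difference of -5.80 (SE 0.30, adjusted p = 7.81e-05).

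Hypoxia response genes were higher in the co-cultured ATRA cells nearly throughout their list. Of 26 hypoxia response genes tested, 25 were called higher and none lower, with a median log2 difference of 2.32 beside 0.03 over all genes. Vegfa, the vascular growth factor, was at 97.4, 107 and 186 CPM against 4.68, 4.52 and 6.34 CPM. All ATRA libraries lay far above all controls, and the log2 difference was 4.67 (SE 0.30, adjusted p = 0.00015, edgeR). Stc2, which encodes the secreted glycoprotein stanniocalcin-2, was at 108, 109 and 149 against 8.41, 6.32 and 6.12 CPM, a log2 difference of 4.16 (SE 0.20, adjusted p = 6.51e-05). Egln3, a prolyl hydroxylase that marks hypoxia-inducible factors for degradation, was at 203, 215 and 270 against 48.4, 46.1 and 48.9 CPM, a log2 difference of 2.29 (SE 0.13, adjusted p = 0.000102). Plod1, a collagen lysyl hydroxylase, was the member not called, and it was alike at a log2 difference of -0.44. The count was also 25 without ATRA replicate 3.

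All 20 glycolysis genes tested were called higher, with a median log2 difference of 1.49. Hk2, the inducible hexokinase, was at 479, 483 and 525 CPM against 131, 140 and 106 CPM (log2 difference 2.01, SE 0.13, adjusted p = 0.000126, edgeR). Aldoc, an aldolase, was at 79.5, 94.0 and 134 against 5.93, 5.88 and 7.53 CPM (log2 difference 4.01, SE 0.23, adjusted p = 0.000102). Pgk1, phosphoglycerate kinase, was at 1160, 1240 and 1620 against 670, 779 and 646 CPM (log2 difference 0.97, SE 0.15, adjusted p = 0.00274). Again no ATRA library fell within the control range. Gapdh is uncertain, because a clone-named copy, Gm10359, had a mean of 7280 CPM in the co-cultured ATRA cells and 0 in both restimulated groups, and how the tables divide reads among the copies was not tested.

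Cell cycle genes were lower in the co-cultured ATRA cells. Of 24 mitosis genes tested, 22 were called lower and none higher, with a median log2 difference of -1.53. The count of lower genes was 12 without ATRA replicate 2, 5, 7 and 10 without control replicates 1, 2 and 3, and 24 without ATRA replicate 3. Mki67, which encodes the proliferation antigen Ki-67, was at 1240, 1130 and 605 CPM against 2550, 2520 and 2390 CPM. Each ATRA library lay below each control, and the log2 difference was -1.29 (SE 0.26, adjusted p = 0.00779, edgeR). Ccnb1, cyclin B1, was at 150, 128 and 56.1 against 434, 468 and 474 CPM (log2 difference -2.0, SE 0.34, adjusted p = 0.00442). Ttk, a spindle checkpoint kinase, was at 37.9, 31.9 and 12.4 against 144, 135 and 134 CPM (log2 difference -2.29, SE 0.39, adjusted p = 0.00416). The group difference was largest in ATRA replicate 3, which had the lowest value of all 6 libraries for these 3 genes.

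Of 27 G1/S and DNA replication genes, 21 were called lower and 2 higher, with a median of -1.26, and 11 and 12 were called lower without control replicates 1 and 2. The 2 higher genes were D-type cyclins, which start the cycle in response to growth signals. Ccnd2 was at 361, 344 and 254 against 121, 134 and 131 CPM (log2 difference 1.35, adjusted p = 0.0011, edgeR), and Ccnd3 had a log2 difference of 1.06. Cdkn1a, which encodes the cell cycle inhibitor p21, was at 127, 135 and 170 against 26.4, 30.2 and 34.1 CPM, a log2 difference of 2.28 (SE 0.16, adjusted p = 0.000159). In the list of cyclin-dependent kinase inhibitors and p53 targets, 16 of 24 were called higher and 1 lower, with 10 higher without control replicate 1 or 2.

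**Figure D3:**
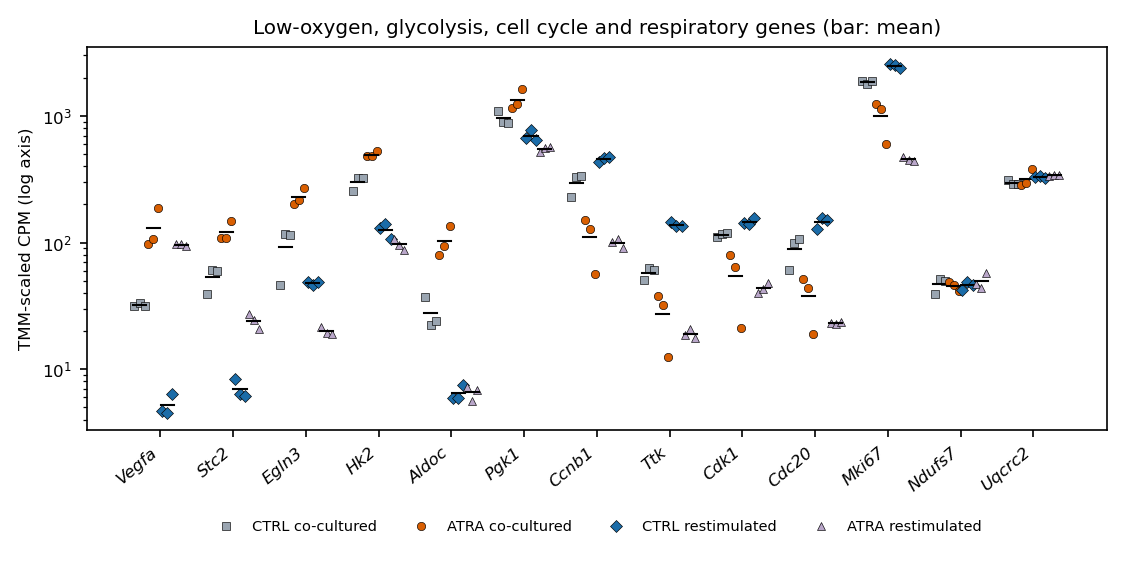
Levels of 6 hypoxia and glycolysis genes, 5 cell cycle genes and 2 respiratory chain genes in TMM-scaled CPM on a log axis, 3 libraries per group, bars marking means. Vegfa to Pgk1 lie higher in the co-cultured ATRA libraries, Ccnb1 to Mki67 lie higher in the restimulated controls, and Ndufs7 and Uqcrc2 overlap.

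Promoters of genes in these lists are printed because the members moved together. The sequences are RefSeq's (GRCm38.p6), each the 250 bases before an annotated start, written 5′ to 3′ on the gene's strand. Egln3 (chr12:54203875-54204124, minus strand) and Pgk1 (chrX:106186850-106187099, plus strand) stand for the hypoxia and glycolysis lists, with capitals marking ACGTG or GCGTG, the core of the hypoxia response element, on either strand. Cdc20 (chr4:118437344-118437593, minus strand) and Cdk1 (chr10:69352913-69353162, minus strand), an activator of the anaphase-promoting complex and the mitotic kinase, stand for the mitosis list. Their capitals mark TTTGAA, the cell cycle homology element, and CCAAT, the NF-Y box, on either strand. The 4 genes were picked after their values and matches were seen. The 250 bases examined before a start of Vegfa held no match to ACGTG or GCGTG.
Egln3: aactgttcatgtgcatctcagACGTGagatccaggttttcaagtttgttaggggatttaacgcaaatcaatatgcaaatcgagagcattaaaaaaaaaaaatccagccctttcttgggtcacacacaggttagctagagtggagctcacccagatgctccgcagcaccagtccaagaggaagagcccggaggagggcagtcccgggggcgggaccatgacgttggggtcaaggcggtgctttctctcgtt
Pgk1: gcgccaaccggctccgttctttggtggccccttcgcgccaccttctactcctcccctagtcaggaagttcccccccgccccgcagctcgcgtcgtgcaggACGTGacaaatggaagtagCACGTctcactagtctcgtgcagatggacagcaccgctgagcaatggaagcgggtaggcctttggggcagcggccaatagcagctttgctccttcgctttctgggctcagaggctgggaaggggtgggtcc
Cdc20: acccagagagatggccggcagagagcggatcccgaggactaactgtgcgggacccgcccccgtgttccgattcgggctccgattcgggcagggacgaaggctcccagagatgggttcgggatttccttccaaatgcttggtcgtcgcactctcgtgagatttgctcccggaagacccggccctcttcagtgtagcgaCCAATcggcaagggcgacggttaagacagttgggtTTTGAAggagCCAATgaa
Cdk1: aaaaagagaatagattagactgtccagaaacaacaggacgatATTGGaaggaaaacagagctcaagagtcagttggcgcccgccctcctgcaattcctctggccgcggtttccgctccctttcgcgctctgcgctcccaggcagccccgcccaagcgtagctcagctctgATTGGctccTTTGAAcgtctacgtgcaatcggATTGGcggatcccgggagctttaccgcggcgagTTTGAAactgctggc

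Among genes called higher in the hypoxia list, 24 of 28 promoters of 20 genes (85.7%) held ACGTG or GCGTG, and among those of the glycolysis list 24 of 32 (75.0%) of 19 genes. Over all 32851 promoters of the table the share was 43.8%. All shares in this paragraph were counted over longer sequences than those printed, which also held bases after the start. Promoters of the genes called lower in the mitosis list held these letters as often, in 16 of 18 (88.9%) of 17 genes, so the short core did not separate the lists. TTTGAA was in 13 of 18 mitosis promoters (72.2%), in 2 of 28 hypoxia promoters (7.1%) and in 17.9% of all promoters, and CCAAT in 15 of 18 mitosis promoters (83.3%), in 16 of 28 hypoxia promoters (57.1%) and in 37.4% of all. Cdc20 was at 51.2, 43.6 and 19.1 CPM against 129, 156 and 151 CPM, and Cdk1 at 79.5, 63.7 and 21.2 against 142, 140 and 156 CPM. Both were called lower, with log2 differences of -1.90 (adjusted p = 0.00551, edgeR) and -1.38 (adjusted p = 0.0364).

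Of 11 retinoid receptors and targets tested, 6 were called higher in the co-cultured ATRA cells and 1 lower (0 without ATRA replicate 1 or control replicate 2, 2 without ATRA replicate 3). Ccr9, the gut-homing receptor, is counted in the list of trafficking receptors and not in this one. It was at 43.3, 42.3 and 46.0 CPM in the co-cultured ATRA libraries and had no count in any restimulated control library. Against the level of 3 counts in each control library it was at least 254-fold higher (adjusted p = 6.51e-05, edgeR). Tgm2, a transglutaminase induced by retinoic acid in many cells, was at 47.9, 51.6 and 61.6 against 0.451, 0.372 and 2.17 CPM, a log2 difference of 5.75 (SE 0.56, adjusted p = 0.000643), which was 7.04 without control replicate 3. P2rx7, an ATP-gated ion channel, was at 61.9, 67.0 and 87.9 against 1.24, 1.61 and 5.31 CPM, a log2 difference of 4.75 (SE 0.52, adjusted p = 0.00101; 5.69 without control replicate 3). All 3 genes had their lowest ATRA library far above their highest control library. Of the 6 retinoid list members called higher, 3 were retinoid receptor genes, among them Rara and Rarg at log2 differences of 1.34 and 1.92. The others were Tgm2, P2rx7 and Acvrl1, the last at a log2 difference of 4.99 (SE 0.47, adjusted p = 0.000533, edgeR). The gene called lower was Dhrs3, a retinaldehyde reductase that is itself induced by retinoic acid, at 0.537, 0.890 and 0.844 against 1.92, 2.48 and 1.95 CPM (log2 difference -1.46, adjusted p = 0.0165).

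The integrin chains of the gut-homing receptor split. Itgb7, the beta7 chain, was at 511, 507 and 737 CPM against 191, 219 and 273 CPM, a log2 difference of 1.39 (SE 0.19, adjusted p = 0.0019, edgeR). Itga4, the alpha4 chain, went the other way, at 247, 262 and 343 against 569, 508 and 505 CPM, a log2 difference of -0.87 (SE 0.14, adjusted p = 0.0032). Neither gene overlapped between the groups. Itgae, the alphaE chain that pairs with beta7 in tissue-resident cells, overlapped at 1.78, 4.68 and 18.9 against 7.28, 8.98 and 15.1 CPM (adjusted p = 0.772), and was lower without ATRA replicate 3 (log2 difference -1.67, adjusted p = 0.0306). Of 19 trafficking receptors tested, 6 were called higher and 6 lower, beside 24.5% and 21.8% of all genes. Their median of -0.04 took either sign under other scalings. Ccr7, the lymph node homing receptor, was at 228, 218 and 214 against 54.2, 59.1 and 68.4 CPM, and was called higher (log2 difference 1.89, adjusted p = 0.000135). S1pr1, the receptor for lymph node exit, was alike, at 67.4, 66.2 and 90.8 against 83.8, 75.6 and 75.1 CPM (log2 difference -0.04), beside means of 16.0 CPM in co-cultured control and 8.25 CPM in restimulated ATRA cells.

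Inhibitory receptors were called in both directions, more often higher. Of 17 tested, 8 were called higher in the co-cultured ATRA cells and 4 lower, beside 24.5% and 21.8% of all genes. The share of lower receptors was thus near that of all genes, the share of higher receptors was above that of all genes, and the median was 0.52. The count of lower receptors was 0 without ATRA replicate 2 or control replicate 3. It was 1 without control replicate 1 or 2 and 2 without ATRA replicate 1. Pdcd1, the gene for PD-1, was at 24.8, 19.9 and 3.66 CPM against 62.7, 69.3 and 84.1 CPM. All ATRA libraries were below the controls, with a log2 difference of -2.12 (SE 0.60, adjusted p = 0.0256, edgeR), and the adjusted p was 0.0626 to 0.0717 without ATRA replicate 2 or any of the controls. Ctla4 was higher, at 249, 299 and 586 against 93.5, 97.7 and 106 CPM (log2 difference 1.95, SE 0.30, adjusted p = 0.0032). Lag3, at 146, 153 and 227 against 61.6, 68.9 and 116 CPM, was also called higher (log2 difference 1.12, adjusted p = 0.0156), but had an adjusted p of 0.0639 to 0.068 without ATRA replicate 3 or control replicate 1 or 2. Tnfrsf9 encodes the activation marker 4-1BB, a costimulator that is among the 8 counted higher in this list. It was at 573, 590 and 697 against 93.1, 98.6 and 98.6 CPM, a log2 difference of 2.71 (SE 0.11, adjusted p = 4.2e-05). Havcr2, the gene for TIM-3, was alike with means of 106 ± 34.3 and 119 ± 23.9 CPM (SD, n = 3 each), a log2 difference of -0.14 that became -0.42 without ATRA replicate 3 (adjusted p = 0.0389).

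Among regulators of terminal exhaustion, 7 of 15 were called higher, none lower (2 without ATRA replicate 3) and 5 were alike. Over all genes these shares were 24.5%, 21.8% and 49.2%. Bhlhe40, a transcription factor that sustains cytokine production and also responds to low oxygen, was at 520, 523 and 634 against 136, 159 and 170 CPM (log2 difference 1.88, adjusted p = 0.000159, edgeR). Nfatc1, a calcium-regulated transcription factor, was alike at means of 128 ± 17.1 and 134 ± 6.22 CPM (SD, n = 3 each). Tox had means of 1.31 and 0.911 CPM and was neither called nor alike (log2 difference 0.56, adjusted p = 0.709). Of 18 progenitor and memory genes, 9 were called higher (5 without control replicate 2) and 3 lower, beside the same shares of all genes. Tcf7, the transcription factor of progenitor exhausted cells, was at 14.4, 15.2 and 2.81 against 0.734, 0.557 and 7.58 CPM. Replicate 3 was out of place in both groups, the difference did not pass (log2 difference 1.90, adjusted p = 0.17), and without control replicate 3 it was 4.10 with an adjusted p of 0.0213. Slamf6, another progenitor marker, was lower, with means of 7.91 ± 3.05 and 26.4 ± 1.53 CPM (SD, n = 3 each; log2 difference -1.70, adjusted p = 0.00486).

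**Figure D4:**
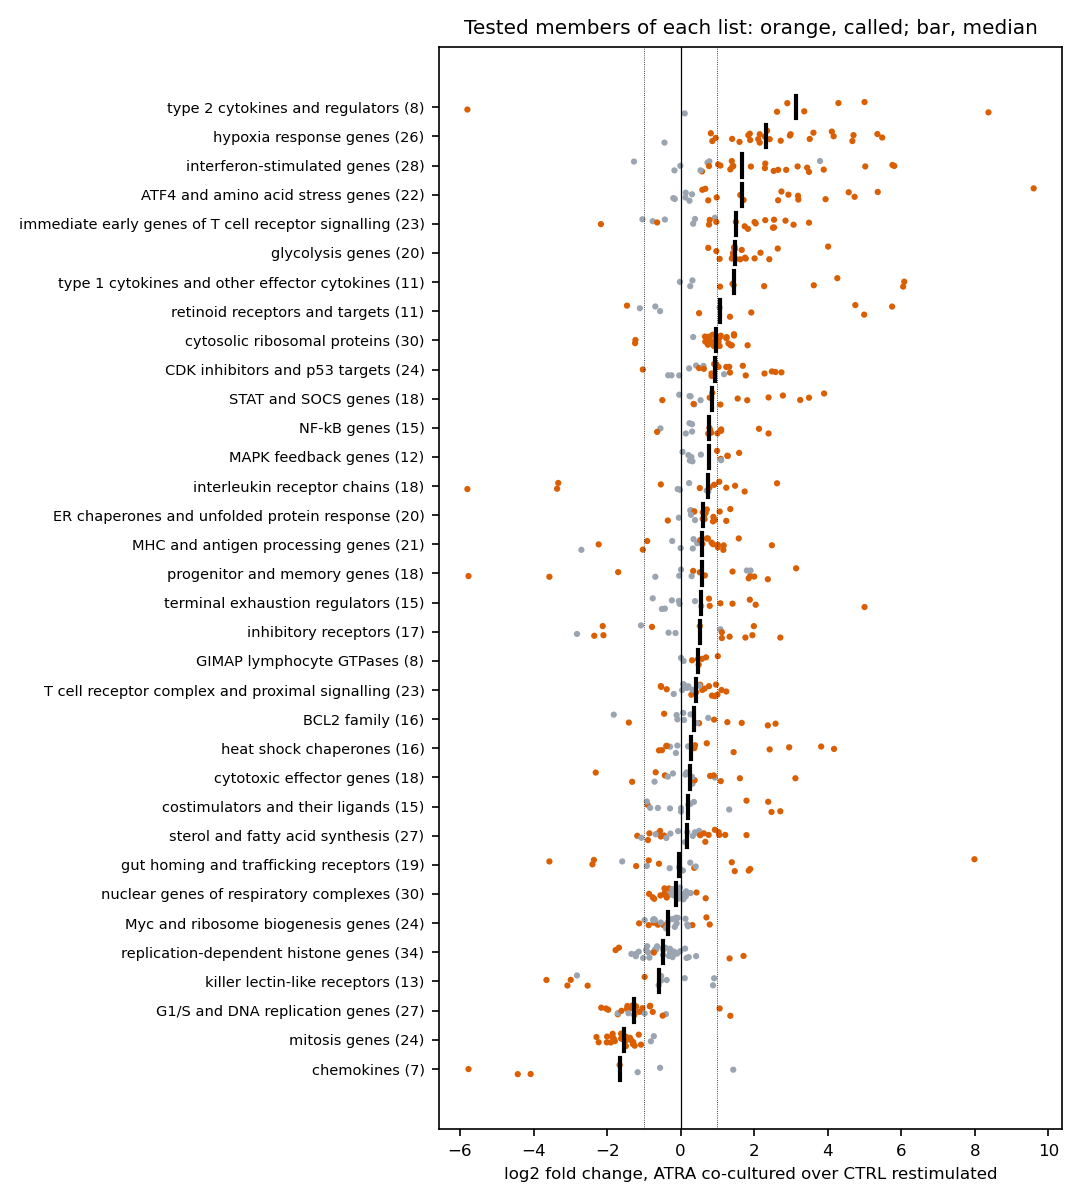
Log2 differences of the tested members of each gene list, positive where higher in the co-cultured ATRA cells; orange points were called, black bars are list medians, dotted lines mark 2-fold and Ccr9 is drawn at its lower bound. Hypoxia, glycolysis, interferon and type 2 lists lie to the right, mitosis and G1/S lists to the left, and respiratory genes close to 0.

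Immediate early genes of receptor signalling were higher in the cells that had not been restimulated. Of 23 tested, 15 were called higher in the co-cultured ATRA cells and 2 lower, with a median of 1.5. Atf3, a stress-induced factor, was at 44.5, 42.6 and 49.7 CPM against 7.39, 6.13 and 5.85 CPM (log2 difference 2.85, SE 0.15, adjusted p = 7.81e-05, edgeR). Egr2, a factor induced by calcium signalling and tied to T cell anergy, was 1 of the 2 lower genes, at 5.58, 5.12 and 4.36 against 23.3, 28.2 and 17.9 CPM (log2 difference -2.17, SE 0.22, adjusted p = 0.000713). The other was Rel, and 4 were called lower without ATRA replicate 3. Nr4a1, a nuclear receptor used as a reporter of receptor signals, was alike at means of 16.6 ± 2.55 and 12.9 ± 2.83 CPM (SD, n = 3 each).

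Genes downstream of cytokine receptors were higher as well. Of 18 STAT and SOCS pathway genes, 12 were called higher and 1 lower (0 without ATRA replicate 2). Pim1, a kinase induced by STAT5, was at 306, 289 and 260 CPM against 28.7, 31.3 and 31.7 CPM (log2 difference 3.25, SE 0.12, adjusted p = 4.2e-05, edgeR), and Cish, a feedback inhibitor of IL-2 signalling, at 183, 179 and 162 against 23.4, 28.0 and 26.8 CPM (log2 difference 2.78, SE 0.13, adjusted p = 4.55e-05). Stat4, a transcription factor of IL-12 signalling, was alike at 186 ± 8.48 and 195 ± 17.5 CPM (SD, n = 3 each). Il2ra, the high-affinity chain of the IL-2 receptor, was at 696, 691 and 763 against 352, 379 and 330 CPM (log2 difference 1.05, adjusted p = 0.00051), whereas Il2rg, the chain shared with other receptors, was alike (log2 difference -0.02). Of 15 NF-kB genes, 9 were called higher, among them the inhibitor Tnfaip3 (log2 difference 2.13, adjusted p = 0.00215), while the subunit Rela was alike (0.24).

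Of 18 cytotoxic genes tested, 6 were called higher and 4 lower, shares near the 24.5% and 21.8% of all genes, and 5 were alike, with a median of 0.24. Prf1, which encodes perforin, was at 286, 284 and 288 CPM against 139, 147 and 124 CPM (log2 difference 1.09, SE 0.10, adjusted p = 0.000483, edgeR). Gzmb was at 1190, 1210 and 1780 against 715, 754 and 809 CPM (log2 difference 0.90, SE 0.16, adjusted p = 0.00492). Both were without overlap and higher in the ATRA cells. Gzma overlapped nowhere except between ATRA replicate 1 and control replicate 3, at 484, 606 and 1190 against 359, 363 and 497 CPM, and did not pass (log2 difference 0.93, adjusted p = 0.052). It passed at 0.0118 to 0.0408 under upper quartile scaling, in the fit of all 12 libraries, with a replicate block, in DESeq2's test and without ATRA replicate 1. Tnfsf10, the gene for the death ligand TRAIL, was lower, at 10.5, 15.0 and 17.0 against 71.6, 70.3 and 71.6 CPM (log2 difference -2.31, SE 0.18, adjusted p = 0.000283). Nkg7, a granule protein needed for exocytosis, was alike, at 277, 279 and 291 against 213, 283 and 275 CPM.

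Of 28 interferon-stimulated genes tested, 21 were called higher in the co-cultured ATRA cells and none lower, with a median of 1.67, although Ifng itself was not called. The count was 13 in the fit with a replicate block and without ATRA replicate 1, 12 without ATRA replicate 2 and 10 without control replicate 1 or 2. Isg15, a ubiquitin-like modifier, was at 13.5, 11.8 and 2.67 CPM against 0.0564, 0.124 and 0.325 CPM (log2 difference 5.81, SE 0.85, adjusted p = 0.00262, edgeR; 6.75 without control replicate 3). Stat2, a signalling factor of the type I interferon receptor, was at 84.2, 84.3 and 67.4 against 32.2, 40.4 and 41.2 CPM (log2 difference 1.08, adjusted p = 0.00231). ATRA replicate 3 was the lowest of its group for both. Mx1, an antiviral GTPase, was alike (log2 difference -0.01). Of 21 genes of MHC and antigen processing, 12 were called higher and 3 lower, beside 24.5% and 21.8% of all genes.

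The ATF4 and ER stress lists were called mostly higher, with other members alike, whereas the sterol and fatty acid list was called in both directions. Of 22 ATF4 and amino acid stress genes, 16 were called higher, none lower and 7 were alike. Atf5 was at 19.8, 18.2 and 20.3 CPM against 0.790, 0.557 and 1.14 CPM (log2 difference 4.57, SE 0.27, adjusted p = 0.000113, edgeR), whereas Psat1, an enzyme of serine synthesis, was alike (0.14). Of 20 ER chaperone and unfolded protein genes, 14 were called higher (8 without control replicate 1 or 2) and 1 lower (0 without any library other than ATRA replicate 3), and 12 were alike. The sterol and fatty acid synthesis list had 9 called higher (4 without control replicate 3), 7 lower and 13 alike of 27. Over all genes these shares were 24.5%, 21.8% and 49.2%. The median of the sterol list was 0.18, and 0 under library totals alone.

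The list with the largest share of alike genes was that of nuclear-encoded respiratory chain subunits. Of 30 tested, 27 were alike, 2 were called higher (1 without ATRA replicate 2 or control replicate 1 or 3) and 9 lower, with a median of -0.12. Under library totals alone 14 were called lower. The interval rule favours well-expressed genes, and 73.8% of all genes at 50 CPM or more in both groups were alike. How far expression level accounts for the share in this list was not tested. Ndufs7, a complex I subunit, was at 49.2, 46.1 and 41.7 CPM against 41.9, 49.2 and 46.6 CPM, and Uqcrc2, of complex III, at 283, 295 and 381 against 329, 338 and 324 CPM. Both overlapped, with log2 differences of 0.02 and -0.02. In the list of the T cell receptor complex and its proximal signalling, 15 of 23 were alike, 12 were called higher and 3 lower (0 without control replicate 3, 1 without any of ATRA replicates 1 and 2 and control replicate 2). Cd3e, a chain of the receptor complex, was at 200, 195 and 196 against 175, 194 and 219 CPM (log2 difference 0.04). The coreceptor gene Cd8a was higher, at 381, 384 and 331 against 153, 175 and 191 CPM (log2 difference 1.11, SE 0.12, adjusted p = 0.000983, edgeR). Of 30 cytosolic ribosomal protein genes, 27 were called higher and 2 lower. The counts were 8 and 0 when genes with a pseudogene row named after them were left out. That setting takes members off the list, so smaller counts follow by construction and do not by themselves show that calls were lost. The count of 27 remains uncertain for genes with near-identical copies.

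Among the 10 largest differences in each direction, several genes were near absent in 1 group. Sorcs2, a sorting receptor, was at 41.0, 35.2 and 32.3 CPM in the co-cultured ATRA libraries and had 0, 0 and 1 count in the controls (adjusted p = 4.2e-05, edgeR). Nos2, the inducible nitric oxide synthase, was at 12.4, 11.7 and 5.81 CPM against 0, 0 and 2 counts (adjusted p = 0.000513). Mcf2l, a guanine nucleotide exchange factor, was at 133, 132 and 126 against 0.169, 0.619 and 0.596 CPM, a log2 difference of 8.18 (SE 0.32, adjusted p = 4.2e-05). In the other direction Csf1, the macrophage growth factor, was at 0.289, 0.534 and 0.281 against 13.4, 9.66 and 11.5 CPM, a log2 difference of -4.94 (SE 0.34, adjusted p = 0.000159). Dscam, a cell adhesion molecule, was at 0.0826, 0.312 and 0 against 9.59, 9.47 and 12.3 CPM, a log2 difference of -6.28 (SE 0.66, adjusted p = 0.000758; -7.88 without ATRA replicate 2).

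On the log scale the difference between these groups equals, by construction, the ATRA effect averaged over both states minus the change on restimulation averaged over both treatments, taken from a fit of all 12 libraries. The restimulation component also carries batch set and count table, which cannot be told apart from it. Of 2482 genes called at least 2-fold apart with both components estimated, the ATRA effect was the larger in 1333 (53.7%) and the restimulation change in 1148 (46.3%). These components are a description and assign no cause. Median components were -1.76 for ATRA and -0.10 for restimulation in the mitosis list, and -1.28 and 0.02 in the G1/S list. The medians were 0.82 and -1.39 in the hypoxia list and 0.29 and -1.20 in the glycolysis list. For Egln3 the components were 0.04 and -2.23, and for Hk2 0.18 and -1.81, whereas for Vegfa they were 3.12 and -1.53. Chemokines combined an ATRA component of -0.76 with a restimulation component of 0.98. For Ifng the averaged components were -0.54 and -0.48, while its means of 783 CPM in co-cultured control and 54.7 CPM in co-cultured ATRA cells, and of 57.1 CPM in restimulated control and 385 CPM in restimulated ATRA cells, were ordered oppositely in the states.

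**Figure D5:**
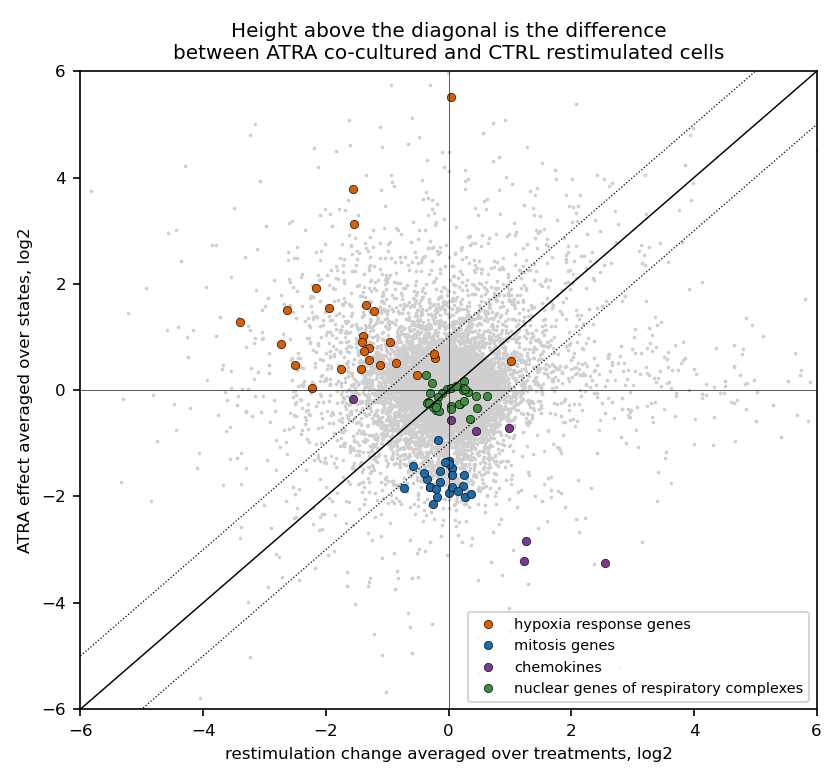
For each gene, the ATRA effect averaged over states (vertical) against the restimulation change averaged over treatments (horizontal), both log2; the height above the solid diagonal is the difference between the groups compared, dotted lines mark 2-fold and a few genes lie outside the axes. Mitosis genes spread downwards along the vertical axis, hypoxia genes other than Plod1 lie above the diagonal and mostly to the left, and respiratory genes stay near the origin.

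Summed markers of CD8 T cells were at 1940 to 2240 CPM in the co-cultured ATRA libraries and 1280 to 1520 CPM in the controls, with 5 of 7 tested members called higher, none lower and 5 alike. Of 15 glioma markers, 11 were in both tables and 7 passed the filter on low counts, and the sum of 1700 to 1870 against 1050 to 1250 CPM was mostly Vim and Cd44, which T cells express. Of the 7 tested, Loxl2 and Vim were called higher and Igfbp7 lower. Axl was at 62.9, 51.8 and 33.9 against 70.6, 76 and 73.4 CPM and was not called (adjusted p = 0.0867, edgeR). Nes, a defining glioma marker, was at most 0.234 and 0.805 CPM. The CD4 T cell sum was 1030 to 1430 against 461 to 499 CPM, made up mainly of Il2ra and Ctla4, with Cd4 at no more than 1.29 CPM. Of the 5 CD4 T cell members tested, Cd4, Ctla4, Il2ra and Zbtb7b were called higher and none lower. B cell markers summed to 44.2 to 76.5 against 22.7 to 29.2 CPM, mainly Ighm. Of the 3 B cell members tested, Cd79b and Ighm were called higher and none lower (1 higher without ATRA replicate 2 or control replicate 1 or 2). NK cell markers summed to 496 to 1200 against 373 to 525 CPM, mainly Gzma, with no member called higher and Klre1 called lower. Dendritic cell markers summed to 151 to 267 against 56.3 to 97.5 CPM, mainly H2-Ab1 and Batf3 in the ATRA cells. Of the 7 tested, these 2 were called higher and 3 (Flt3, H2-Aa and Itgax) lower. Monocyte and macrophage markers summed to 21.6 to 25.7 against 11.6 to 17.2 CPM, mainly Cd68. Of these, Cd68 was called higher and Cd14 lower. The part of these cells in the differences above was not tested.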

How the data were processed

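RNA was measured by bulk sequencing of stranded total RNA libraries from sorted live CD45.2+ cells. The authors deposited whole-number counts per gene symbol in 2 tables, 1 for each state. The table of the co-cultured cells held 13948 rows, each with at least 10 counts in total. The other held 35588 rows, 16386 of them all 0. Genes near absent from both co-cultured groups but present after restimulation could thus be missing from the join. How far this moved the counts of higher and lower genes and the largest differences was not tested. The build was mm39 and the tools named were STAR 2.7.11b, cutadapt 5.0, DESeq2 1.42.1 and Salmon 1.10.3, per the submitters' processing notes. What each tool did, the annotation and the strand setting are not stated there. The TPM table was not used here. The tables shared 13625 symbols, of which 149 rows ending in -ps (pseudogenes) were left out. The 13476 kept symbols held 95.8% to 96.9% of the counts of the 6 libraries.

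The 6 libraries were fitted in edgeR 4.0.16 (R 4.3.3) with filterByExpr, TMM and the robust quasi-likelihood test, adjusted by Benjamini and Hochberg over all genes tested, with a threshold of 0.05. A gene was alike where the 95% interval of its log2 fold change lay inside -1 to 1. The procedure was also run on simulated counts, which gave all genes and libraries the same spread beyond counting error. They held no outlying library like ATRA replicate 3, so that run does not cover its influence on the calls and intervals. Floors cover counting error only. Same-numbered libraries came from different batches, and their deviations from the group means correlated at -0.01, -0.01 and -0.05. These values gave no sign of pairing by number, but 3 libraries per group cannot exclude it, and the libraries were treated as unpaired. Alternatives were other scalings (DESeq2 1.42.0 size factors, library totals, upper quartile), filters and tests, a replicate block and leaving out each library.

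Named genes were the 10 largest called differences in each direction with at least 5 CPM in the higher group and no overlap, the 2 called members of each list with the smallest p, the 2 alike members of each list closest to 0, and a set given by name, among them Ifng, Pdcd1, Ccr9 and Mki67. Lta, Ltb, Cxcl10, Dhrs3, Il10, Il13, Gata3, Gapdh, Rel, Rara, Rarg, Pgk1, Cdc20, Cdk1, markers of other cells and the cytokines low in both groups were picked after their values were seen. The comparison, the lists and the rule were chosen with earlier results of these data known.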

Additional observations from a re-analysis of the deposited data

Results flagged for a closer look

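Zfp683, which encodes Hobit, a transcription factor of tissue-resident lymphocytes, had a signal in data that the comparison could not use. Its symbol was absent from the count table of the co-cultured cells, where no synonym of it was found either. Whether it was left out there for low counts was not tested. It had 123, 129 and 108 counts in the restimulated control libraries, a mean of 6.90 CPM, above the level of 3 counts. The restimulated ATRA libraries held 53, 42 and 57 counts. Its level in the co-cultured ATRA cells was not analysed here.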

How the results depend on the processing

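Leaving out 1 library at a time gave 3396 to 6507 genes called, 1879 to 3299 higher, 1517 to 3208 lower, 1875 to 2707 at least 2-fold apart and 4818 to 6956 alike. The fewest calls came without control replicate 1 and the most without ATRA replicate 3. The number of calls stayed between 5207 and 6801 under the other scalings, filters, tests and the fit of all 12 libraries. It was 4720 in the fit with a replicate block, which assumes a pairing by number that is not stated for the libraries. A narrower interval, inside -0.5 to 0.5, left 1708 alike genes, by its construction. The log2 difference of Ifng turned from -0.02 to 0.47 without ATRA replicate 3 and ranged from -0.44 to 0.47 over the leave-outs. Over the named genes, 3093 values under an alternative kept their direction and side of the threshold, 58 no longer passed, 27 newly passed, 1 reversed (Ifng, above) and 7 values without a call moved. Leaving out genes with a pseudogene row named after them was chosen after seeing the data and gave 5244 calls. The leave-one-out fits have fewer libraries to estimate the spread, which limits the calls. At this depth, levels under 0.186 CPM in the controls rest on fewer than 3 counts in at least 1 library.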

Other observations

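Several small families are not described in the report. Of 13 killer lectin-like receptor genes tested, 5 were called lower in the co-cultured ATRA cells and none higher (1 higher without ATRA replicate 3). Over all genes 21.8% were called lower and 24.5% higher. The median log2 difference of these receptor genes was -0.60. Of 8 GIMAP genes, which encode GTPases of lymphocyte survival, 6 were called higher but only 1 under library totals alone, 2 without ATRA replicate 2 or control replicate 1 and 3 without control replicate 2 or 3, and 6 were alike. Gimap8 was alike with means of 150 ± 13.5 and 152 ± 7.95 CPM (SD, n = 3 each). Of 16 heat shock chaperones, 10 were alike, 8 were called higher (2 without control replicate 1) and 4 lower (1 without ATRA replicate 2 or control replicate 1). Hspa1b, an inducible chaperone, was at 207, 274 and 642 CPM in the ATRA libraries and at 12.4, 16.3 and 51.6 CPM in the controls, a log2 difference of 3.82 (adjusted p = 0.00499, edgeR) that was 3.20 without ATRA replicate 3 and 4.72 without control replicate 3. Replicate 3 was the highest library of both groups for this gene. The mirror comparison, restimulated ATRA against co-cultured control cells, shares no library with the present one, and across 11388 genes the log2 differences of the comparisons correlated at r = -0.008 and rho = 0.04.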
